A study of Homo sapiens with 12 samples.

Results

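E4F1 and the genes that build or control the pyruvate dehydrogenase complex were followed through 4 groups of SUM159 cells. The 9 genes, chosen by name, came out of 23375 genes with a value in at least 1 comparison. They were E4F1 itself, the complex genes PDHA1, PDHB, DLAT and DLD, and the kinase genes PDK1 and PDK3. Also among them were PDPR, the gene of a phosphatase regulatory subunit, and the pyruvate carrier gene MPC1. SUM159 is an established triple-negative breast cancer line. The groups were shE4F1 cells with gemcitabine, shE4F1 cells without drug, shCTRL cells with gemcitabine and shCTRL cells without drug, with 3 polyadenylated RNA libraries in each. Gemcitabine, a deoxycytidine analogue that stalls DNA synthesis, was given at 140 nM for 24 h. All 4 groups carried a hairpin, which in shCTRL cells was a scrambled one, so no group shows cells without a hairpin. Because the labels name no more than 1 hairpin against E4F1, effects of lower E4F1 and effects of that hairpin on other transcripts cannot be told apart. The labels leave unsaid whether the cells were a clone or a pool and whether each library had its own culture, so a p-value reflects only how far these libraries differ, which may be technical.

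The pyruvate dehydrogenase complex sits in the mitochondrial matrix and turns pyruvate into acetyl-CoA, which links glycolysis to the citric acid cycle. The E1 enzyme, built from the PDHA1 and PDHB products, decarboxylates pyruvate. The E2 enzyme DLAT passes the acetyl group to coenzyme A from a lipoyl arm, and the E3 enzyme DLD reoxidises that arm. Pyruvate dehydrogenase kinases (PDK1 to PDK4) phosphorylate E1 and switch it off, and phosphatases switch it back on. PDPR is a regulatory subunit that lowers the activity of the catalytic phosphatase. MPC1 forms the mitochondrial pyruvate carrier with MPC2. E4F1 is a zinc finger transcription factor that binds DNA sites containing the letters TGACGT, and in mouse tissues it has been reported to control Dlat, Dld, Mpc1 and Pdpr.

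The promoters of PDHA1, DLD and DLAT are shown because the knockdown calls of these 3 genes differed. PDHA1 was called lower in shE4F1 than in shCTRL cells without and with gemcitabine. DLAT was called lower without drug only, and DLD was called higher under gemcitabine only. The change of the knockdown effect with drug was called for none of the 3 (normal test, adjusted p = 0.810 for PDHA1, 0.297 for DLAT and 0.813 for DLD). Each line holds the 250 bases before an annotated start, 5′ to 3′ on the gene's strand, from RefSeq on GRCh38.p14, and capitals mark TGACGT. The PDHA1 sequence is chrX:19343677-19343926 on the plus strand, the DLD sequence is chr7:107890933-107891182 on the plus strand and precedes the downstream one of 2 annotated starts, and the DLAT sequence is chr11:112025158-112025407 on the plus strand.
PDHA1: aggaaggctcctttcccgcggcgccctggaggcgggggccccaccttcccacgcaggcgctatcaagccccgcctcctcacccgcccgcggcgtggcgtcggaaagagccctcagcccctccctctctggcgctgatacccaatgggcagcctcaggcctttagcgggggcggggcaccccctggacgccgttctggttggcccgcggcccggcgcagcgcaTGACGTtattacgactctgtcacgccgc
DLD: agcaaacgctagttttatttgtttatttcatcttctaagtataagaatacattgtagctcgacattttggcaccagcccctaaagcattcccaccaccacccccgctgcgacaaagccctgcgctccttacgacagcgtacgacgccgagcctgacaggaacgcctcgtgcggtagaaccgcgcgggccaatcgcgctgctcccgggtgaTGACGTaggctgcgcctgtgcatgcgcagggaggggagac
DLAT: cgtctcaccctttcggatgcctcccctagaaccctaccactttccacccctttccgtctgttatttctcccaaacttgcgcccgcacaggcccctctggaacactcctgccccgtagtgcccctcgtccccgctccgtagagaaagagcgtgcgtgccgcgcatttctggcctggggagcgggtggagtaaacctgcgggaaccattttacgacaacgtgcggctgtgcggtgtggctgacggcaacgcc
The letters TGACGT were searched on both strands in windows of 300 bases, from 250 before to 50 after the start. They were present in windows of 3 of the 9 genes: PDHA1, where the first base lies at position -28, DLD, at position -40 of the printed window, and PDK3, at position -149 on the minus strand. Of all 35116 windows, 7.98% held TGACGT, as did the windows of 9.64% of 27305 genes. The longer form TGACGTNA, which contains TGACGT, was present in PDHA1 alone among the 9 and in 3.01% of all windows. The printed DLAT sequence holds neither form, which says only that these letters are not in that window.

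E4F1 (ENSG00000167967, chr16:2223566-2235742, plus strand, GRCh38, GENCODE 29) checks the labels of the groups. The group levels used here were computed from the mean normalized count and the fold change of the same table, so they have no error of their own and no value per library can be given. In untreated cells, E4F1 stood at 209 normalized counts in shE4F1 cells and 415 in shCTRL cells, a log2 fold change of -0.99 in the authors' deposited table (SE 0.26, n = 3 libraries per group, DESeq2 adjusted p = 0.000778). Under gemcitabine it stood at 205 in shE4F1 cells and 384 in shCTRL cells, a log2 fold change of -0.91 in the authors' deposited table (SE 0.16, DESeq2 adjusted p = 1.47e-07). The hairpin thus left close to the same fraction of E4F1 transcript in both conditions, 0.503 (95% interval 0.353 to 0.718) untreated and 0.532 with drug. The difference between the knockdown effects was 0.08 (95% interval -0.52 to 0.68). Reached through the other 2 tables of the same groups, with an SE that is too large, the value under gemcitabine was -0.89 with adjusted p = 0.0772.

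Facts of the whole series bear on these values. Depth per library is not known here, since the 12 columns of the count table match no label, and the median SE of a log2 fold change over all genes ranged over 0.206 to 0.249 in the 4 tables. All 8 markers listed for SUM159 (VIM, CD44, SPARC, FN1, ZEB1, AXL, EGFR and KRT18) were measured. Their means were 2330 normalized counts or more in the untreated knockdown table, where 2 were lower and 4 higher in shE4F1 cells. Under gemcitabine 1 was lower and 4 were higher, AXL at -1.85 and FN1 at 1.78 on the log2 scale among them, in the authors' deposited table. Of 7 luminal and receptor markers 4 had a row in the untreated knockdown table, ESR1 at a mean of 9.21 and ERBB2 at 2833. Of 5 blood cell markers 2 had one in that table, CD14 at 4.98 and PTPRC at 42.6. PTPRC was lower in shE4F1 cells, at -2.21 (adjusted p = 4.96e-07) untreated and -3.00 under gemcitabine in the authors' deposited tables. Of 4 endothelial markers 2 had a row in the authors' deposited table for untreated cells. Both differed by the hairpin in that table, PECAM1 by 1.40 and KDR by 2.34 on the log2 scale. Whether these marker differences bear on the 9 genes was not tested.

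Without drug, the E4F1 hairpin lowered 4 of the 9 genes, E4F1, PDHA1, DLAT and PDK1, and raised 0 by DESeq2 in the authors' deposited table, at an adjusted p under 0.05, and 0 were higher at an unadjusted p under 0.05. With gemcitabine, E4F1 and PDHA1 were lower again and DLD was higher. Across all genes tested, 36.7% were called in either direction in the untreated knockdown table and 41% in the gemcitabine one. The shares called lower were 19.3% and 20.8%. Calls were more frequent among genes with a mean of at least 1000 normalized counts, where 49.2% and 63.1% were called, and 27% and 30.2% called lower. The members' shares called in either direction, 4 of 9 and 3 of 9, therefore lie near the background and are not a result about the group. The 4 lower members without drug include E4F1, the target of the hairpin, and their count was not tested against the share called lower. The median log2 fold change of the 9 was -0.24 untreated and -0.12 with gemcitabine, against 0.00 for all genes in each table.

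**Figure D1:**
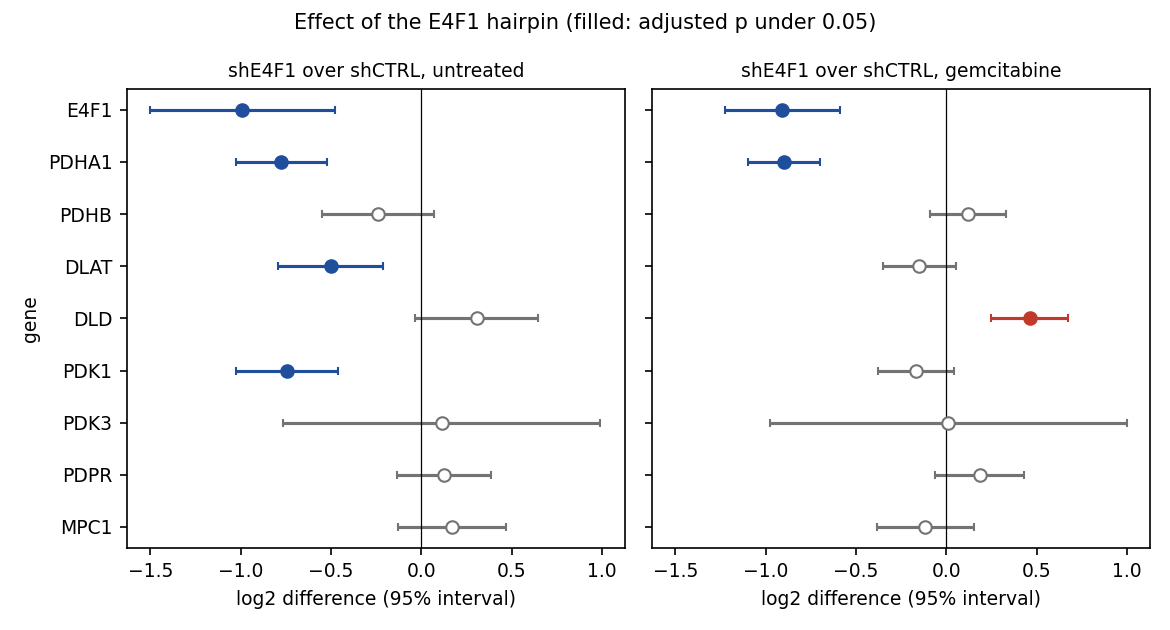
Log2 fold change of shE4F1 over shCTRL cells for the 9 genes (rows), without drug on the left and with gemcitabine on the right; points are the deposited estimates from 3 libraries per group, bars the 95% intervals, and filled points have an adjusted p under 0.05. E4F1 and PDHA1 are filled and left of 0 in both panels, PDK1 and DLAT are filled in the left panel alone, and DLD is filled right of 0 with gemcitabine at 0.46.

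Set per kilobase of exon, the levels of the 9 genes had the order DLD, MPC1, PDHA1, DLAT, PDHB, PDPR, PDK1, E4F1 and PDK3, high to low, as means over both groups of each of the 4 tables. The length was the union of all annotated exons of a gene, whichever transcripts the cells make. The order and the ratios between genes therefore depend on the annotation. Within groups the order was not the same throughout. In shCTRL cells with gemcitabine MPC1 lay above DLD, at 1309 against 1155 normalized counts per kb in the gemcitabine knockdown table, and in untreated shE4F1 cells PDHB lay above DLAT, at 465 against 446. As means of the tables, DLD ranged over 1352 to 1496 normalized counts per kb and MPC1 over 1123 to 1270. PDHA1 followed at 736 to 1044, DLAT at 461 to 611 and PDHB at 398 to 510. The order of DLAT and PDHB therefore rests on ranges that overlap. PDPR lay at 250 to 263 normalized counts per kb, PDK1 at 97.4 to 145 and E4F1 at 46.0 to 68.3. PDK3 was close to absent at 1.34 to 2.93 per kb. These are means over the libraries of a table, and without values per library the neighbours' spread could not be compared.

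**Figure D2:**
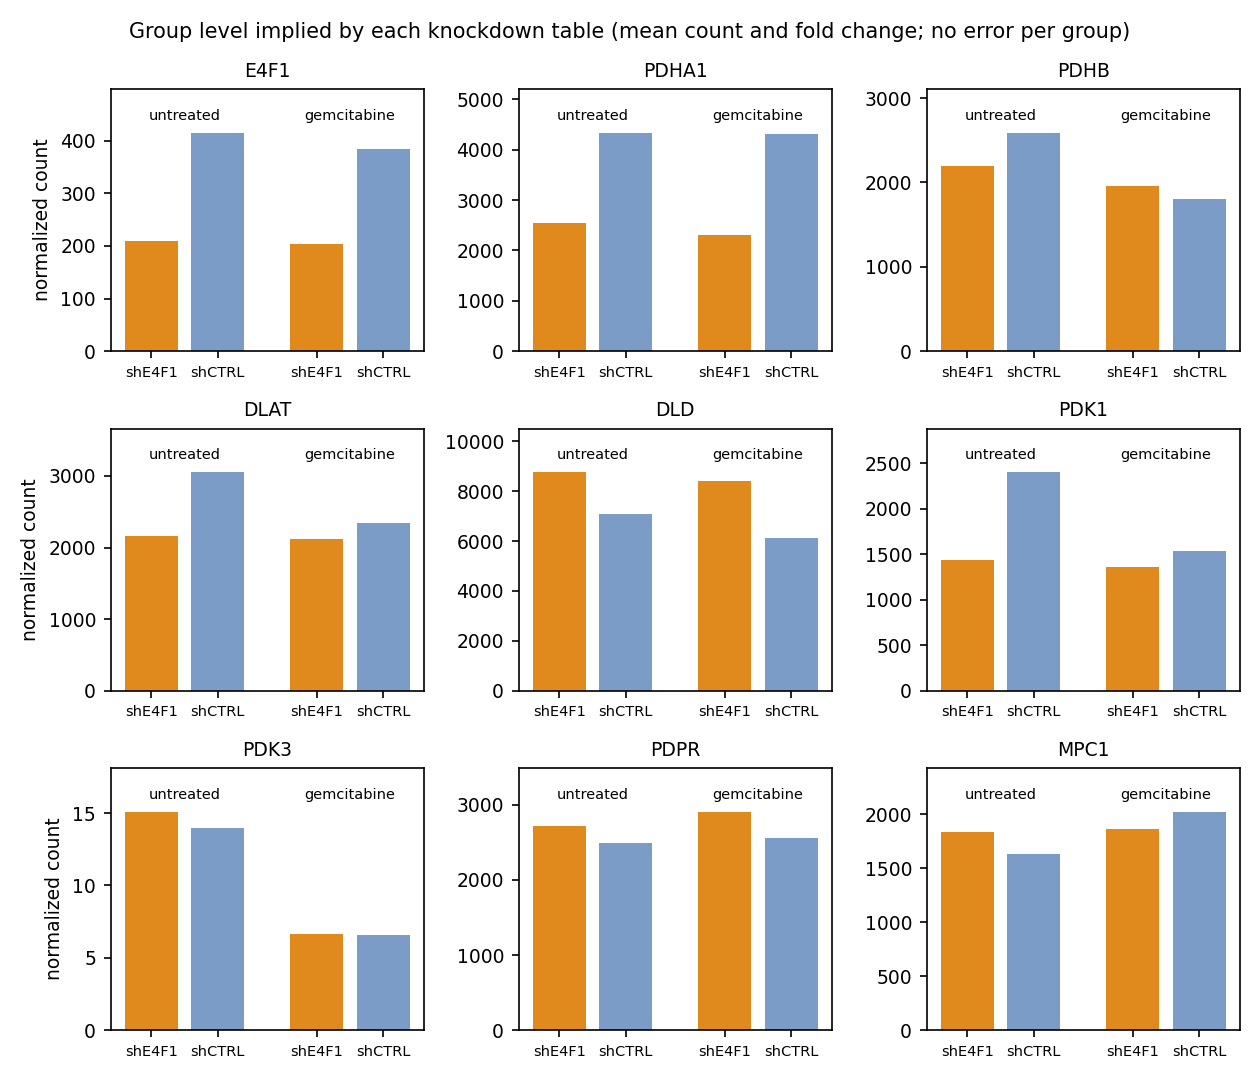
Level of each gene in normalized counts (y axis, starting at 0, with its own scale per panel) in shE4F1 (orange) and shCTRL cells (blue), without drug on the left and with gemcitabine on the right of each panel, as implied by the mean count and fold change of the 2 knockdown tables, with no error per group. PDHA1 is at 2537 and 2308 in shE4F1 cells, against 4340 and 4306 in shCTRL cells, while PDK1 in shCTRL cells is at 2402 untreated and 1534 with gemcitabine.

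PDHA1 (ENSG00000131828, chrX:19343893-19361705, plus strand) encodes the catalytic E1 alpha subunit, the one that the kinases phosphorylate. Without drug it stood at 2537 normalized counts in shE4F1 cells and 4340 in shCTRL cells, a log2 fold change of -0.77 in the authors' deposited table (SE 0.13, DESeq2 adjusted p = 1.96e-08). With gemcitabine it stood at 2308 in shE4F1 cells and 4306 in shCTRL cells, and the log2 fold change was -0.90 in the authors' deposited table (SE 0.10, DESeq2 adjusted p = 2.34e-17). PDHA1 thus fell to 0.585 and 0.536 times the shCTRL level, fractions close to those of E4F1. Among genes with a mean of at least 1000, 9.70% had a lower log2 fold change than PDHA1 untreated and 6.08% with gemcitabine. The difference between its knockdown effects was -0.13 (95% interval -0.45 to 0.20, adjusted p = 0.810). MAP3K15, on the opposite strand, overlaps 21.3% of the PDHA1 exon bases, but its mean was 21.0 normalized counts, 0.611% of that of PDHA1.

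PDHB (ENSG00000168291, chr3:58427630-58433857, minus strand), the E1 beta subunit gene, did not pass the knockdown test in either condition. Untreated levels were 2194 in shE4F1 cells and 2590 in shCTRL cells, with a log2 fold change of -0.24 in the authors' deposited table (95% interval -0.55 to 0.07, adjusted p = 0.243). With gemcitabine the levels were 1957 in shE4F1 cells and 1801 in shCTRL cells, and the log2 fold change was 0.12 (95% interval -0.09 to 0.33, adjusted p = 0.419) in the authors' deposited table. The 2 genes of one E1 enzyme therefore had intervals that do not overlap with gemcitabine, that of PDHA1 being -1.10 to -0.70. Per kilobase, PDHA1 was at 1.21 times PDHB in untreated shE4F1 cells and at 1.76 times in untreated shCTRL cells. With gemcitabine the same ratio was 1.24 in shE4F1 cells and 2.51 in shCTRL cells.

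DLAT (ENSG00000150768, chr11:112024814-112064390, plus strand), the E2 acetyltransferase gene, fell without drug to 2155 normalized counts in shE4F1 cells, against 3053 in shCTRL cells. The log2 fold change was -0.50 in the authors' deposited table (SE 0.15, DESeq2 adjusted p = 0.00275). With gemcitabine DLAT was at 2114 in shE4F1 cells and 2345 in shCTRL cells, a log2 fold change of -0.15 in the authors' deposited table (95% interval -0.35 to 0.05, adjusted p = 0.258). The change of the knockdown effect with drug was 0.35 (SE 0.18), with an unadjusted p of 0.0487 and an adjusted p of 0.297, so it was not called.

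DLD (ENSG00000091140, chr7:107890970-107931730, plus strand), the E3 dihydrolipoamide dehydrogenase gene, is shared with other 2-oxoacid dehydrogenases and the glycine cleavage system. It moved the other way from PDHA1. With gemcitabine DLD was at 8419 normalized counts in shE4F1 cells and 6121 in shCTRL cells, a log2 fold change of 0.46 in the authors' deposited table (SE 0.11, DESeq2 adjusted p = 0.000117). Without drug it was at 8760 in shE4F1 cells and 7092 in shCTRL cells, with a log2 fold change of 0.30 in the authors' deposited table (95% interval -0.04 to 0.65, adjusted p = 0.165). The knockdown effects differed by 0.16 (95% interval -0.25 to 0.56), so a difference between conditions was not shown. Reached through the other 2 tables, the value with gemcitabine was 0.43 and its call was lost (adjusted p = 0.306). LAMB1 lies on the opposite strand and overlaps 1.32% of the DLD exon bases. Its mean in the untreated knockdown table was 17694 normalized counts, 223% of that of DLD, and it was at -0.82 (adjusted p = 1.31e-06) there and at -0.07 (adjusted p = 0.676) under gemcitabine in the authors' deposited tables. By the authors' deposited table for gemcitabine in shCTRL cells, LAMB1 was at -1.10 (adjusted p = 3.21e-10), and its part in the DLD values was not tested.

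PDK1 (ENSG00000152256, chr2:172555373-172608669, plus strand) encodes a kinase that inhibits E1 and is a known target of the hypoxia factor HIF-1. Untreated cells held 1434 normalized counts with shE4F1 and 2402 with shCTRL, a log2 fold change of -0.74 in the authors' deposited table (SE 0.14, DESeq2 adjusted p = 2.65e-06). With gemcitabine the levels were 1365 in shE4F1 cells and 1534 in shCTRL cells, with a log2 fold change of -0.17 in the authors' deposited table (95% interval -0.38 to 0.04, adjusted p = 0.223). Untreated shCTRL cells were the group that stood high, and the other 3 groups lay at 1365 to 1534, where levels from the 2 tables may be scaled differently. PDK1 was the 1 member of 9 whose knockdown effect differed between conditions, by 0.58 (SE 0.18, 95% interval 0.22 to 0.93, adjusted p = 0.0327 from a normal test on the 2 tables), against 5.43% of all genes called. Its call was lost once the effects were centred on the median gene (0.49, adjusted p = 0.0893).

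PDK3 (ENSG00000067992, chrX:24465221-24541862, plus strand), another kinase gene, was too low to read. Its mean was 14.5 normalized counts in the untreated knockdown table and 6.61 in the gemcitabine one. The log2 fold changes of shE4F1 over shCTRL were 0.11 (95% interval -0.76 to 0.99) and 0.01 (95% interval -0.98 to 1.00) in the authors' deposited tables. With drug, changes of up to 0.98 in either direction thus lay within the interval.

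PDPR (ENSG00000090857, chr16:70113626-70162537, plus strand), which lowers the activity of the catalytic phosphatase, was at 2712 normalized counts in untreated shE4F1 cells and 2487 in untreated shCTRL cells. Its log2 fold change was 0.12 (95% interval -0.14 to 0.39, adjusted p = 0.516) untreated and 0.18 (95% interval -0.06 to 0.43, adjusted p = 0.260) with gemcitabine in the authors' deposited tables. The PDPR values are uncertain, because 18.4% of its possible reads of 50 bases also occur in transcripts of other genes, most of them in AC009053.1, and the counting of shared reads is not given in the sources used here. MPC1 (ENSG00000060762, chr6:166364919-166383013, minus strand) was at 1838 in untreated shE4F1 cells and 1633 in untreated shCTRL cells. Its log2 fold change was 0.17 (95% interval -0.13 to 0.47, adjusted p = 0.419) untreated and -0.12 (95% interval -0.38 to 0.15, adjusted p = 0.553) with gemcitabine in the authors' deposited tables. Of the 4 genes reported as E4F1 targets in mouse, DLAT was the one called lower in shE4F1 cells, and only without drug. The intervals of DLD, MPC1 and PDPR reached down to -0.04, -0.13 and -0.14 in untreated cells. With gemcitabine they began at 0.25, -0.38 and -0.06. For PDPR these bounds share the uncertainty of its reads.

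**Figure D3:**
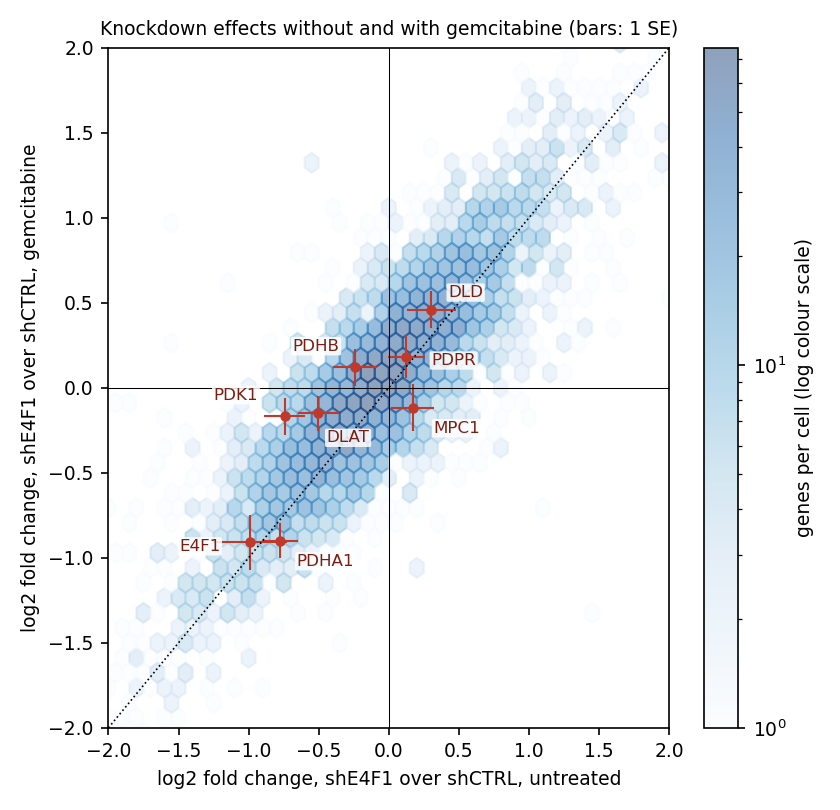
Log2 fold change of shE4F1 over shCTRL cells without drug (x axis) and with gemcitabine (y axis) for 8 of the 9 genes (red, bars 1 SE; PDK3 left out as too low), over the density of 6329 genes with a mean of at least 1000 in both tables (blue, log colour scale; genes beyond the axes are not drawn). E4F1 and PDHA1 lie near the dotted line of equal effects at the lower left, whereas PDK1 at -0.74 untreated and -0.17 with gemcitabine lies above it.

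Gemcitabine in shCTRL cells lowered PDHB, DLAT and PDK1. Of all genes 28% were called in either direction and 13.5% were called lower. Among genes with a mean of at least 1000, 25.2% were called lower. By DESeq2 0 of the 9 genes were higher, and 0 at an unadjusted p under 0.05. PDK1 stood at 1567 normalized counts with gemcitabine and 2763 without, a log2 fold change of -0.82 in the authors' deposited table (SE 0.15, DESeq2 adjusted p = 3.72e-07). PDHB stood at 1839 with gemcitabine and 2973 without, a log2 fold change of -0.69 in the authors' deposited table (SE 0.16, DESeq2 adjusted p = 0.000210). DLAT stood at 2384 with gemcitabine and 3515 without, a log2 fold change of -0.56 in the authors' deposited table (SE 0.14, DESeq2 adjusted p = 0.000599). PDHA1, the partner of PDHB, was at -0.20 (95% interval -0.46 to 0.06) and E4F1 at -0.29 (95% interval -0.78 to 0.20) in the authors' deposited table, and neither was called. By the authors' deposited table, DLD was at -0.38 (adjusted p = 0.108), PDK3 at -0.79 (adjusted p = 0.169), MPC1 at 0.12 and PDPR at -0.14, none of them called. The untreated shCTRL libraries enter this comparison and the untreated knockdown comparison alike, so the falls of DLAT and PDK1 in both are not independent of each other.

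In shE4F1 cells the gemcitabine effect had to be taken as the difference of 2 tables, and its SE is too large because the untreated shCTRL libraries are counted in both. None of the 9 genes was called, and 0 had an unadjusted p under 0.05 in that normal test, where 1.11% of all genes were called. The log2 differences were -0.36 for PDHB (95% interval -0.81 to 0.09), -0.34 for PDHA1 (-0.71 to 0.04), -0.27 for PDK1 (-0.69 to 0.16) and -0.23 for DLAT (-0.64 to 0.19). DLD was at -0.26, MPC1 at -0.19, E4F1 at -0.19, PDPR at -0.11 and PDK3 at -1.01 (95% interval -2.30 to 0.27). The interval of PDK1 includes small changes and falls of moderate size, so a lack of response in shE4F1 cells was not shown. The difference between the PDK1 effects of gemcitabine in shE4F1 and shCTRL cells is the same contrast as the value of 0.58 given above, and it came to 0.55 by this path, where it was not called (adjusted p = 0.618).

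**Figure D4:**
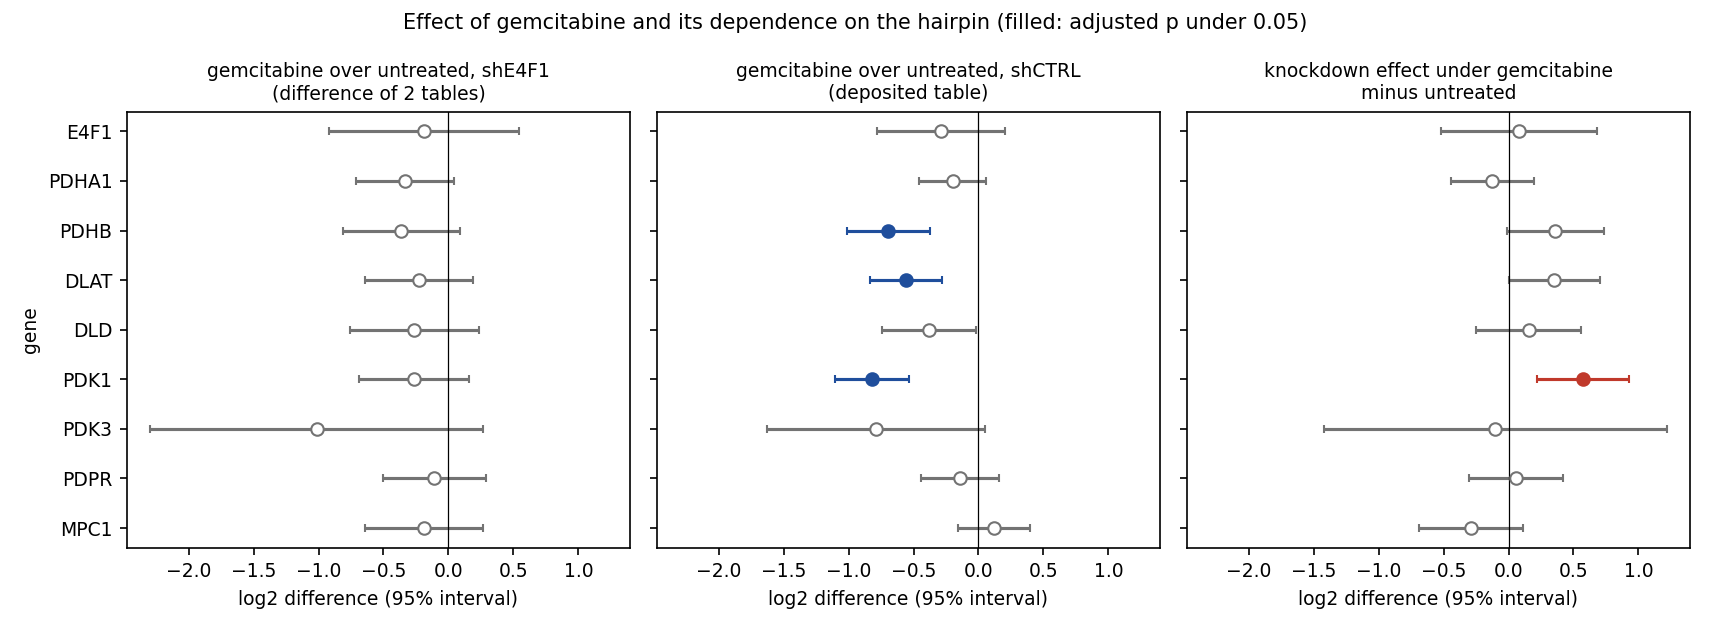
Log2 difference with 95% interval for the 9 genes (rows): gemcitabine over untreated in shE4F1 cells on the left, gemcitabine over untreated in shCTRL cells in the middle, and the knockdown effect with gemcitabine minus that without on the right, with filled points at an adjusted p under 0.05. PDHB, DLAT and PDK1 lie at -0.69, -0.56 and -0.82 in the middle panel, no gene is filled on the left, and PDK1 alone is filled on the right.

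Hairpin and drug together, set against untreated shCTRL cells, lowered 5 members, E4F1 among them. Of all genes 32.2% were called in either direction and 16.3% were called lower. Among genes with a mean of at least 1000, 27.2% were called lower. By DESeq2 0 were higher, and 0 at an unadjusted p under 0.05. E4F1 was at -1.18 (SE 0.27, DESeq2 adjusted p = 8.55e-05) and PDHA1 at -1.11 (SE 0.14, DESeq2 adjusted p = 4.51e-13) in the authors' deposited table. PDK1 was at -1.01 (SE 0.16), DLAT at -0.73 (SE 0.15) and PDHB at -0.60 (SE 0.17) in the authors' deposited table. E1 alpha, E1 beta and E2 transcripts were thus all lower in this pair of groups, by a level of 2149 against 4640 normalized counts for PDHA1, 1824 against 2769 for PDHB and 1969 against 3266 for DLAT, shE4F1 with gemcitabine against untreated shCTRL. By the authors' deposited table, DLD was at 0.04 (95% interval -0.32 to 0.40), PDK3 at -0.90 (adjusted p = 0.143), PDPR at 0.02 and MPC1 at -0.02, none of them called.

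The other genes of the complex were mixed in shE4F1 relative to shCTRL cells. Of 6, the untreated knockdown table called 1 lower and 2 higher and the gemcitabine one 2 lower and 1 higher. Across all genes 36.7% and 41% were called in these tables, and 49.2% and 63.1% at a mean of at least 1000. PDK2, a kinase gene, was lower in shE4F1 cells in both authors' deposited tables, by -0.97 (SE 0.25) untreated and -0.91 (SE 0.17) with gemcitabine. PDHX, which anchors E3 to the E2 core, was higher in both, by 0.53 (SE 0.13) and 0.33 (SE 0.11) in the authors' deposited tables. Of the catalytic phosphatase genes, PDP1 was lower in shE4F1 than in shCTRL cells under gemcitabine (-0.75, SE 0.09) and was at -0.34 untreated (adjusted p = 0.0803), while PDP2 was higher in untreated shE4F1 cells (0.39, SE 0.14) and was at 0.09 under gemcitabine (adjusted p = 0.555), all in the authors' deposited tables. PDK4 and MPC2 were not called in either. The list medians were -0.04 untreated and -0.08 with gemcitabine.

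Genes that supply the lipoate and thiamine cofactors of the complex were called lower in shE4F1 than in shCTRL cells in 5 of 12 and higher in 1 without drug, and lower in 6 and higher in 2 with gemcitabine. The shares called were 36.7% and 41% of all genes, and 49.2% and 63.1% at a mean of at least 1000. The list was not tested as a set. LIAS, the lipoyl synthase, fell by 0.91 (SE 0.17) and 0.38 (SE 0.11), and IBA57, an iron-sulfur cluster factor, by 0.81 (SE 0.20) and 0.47 (SE 0.17), untreated and with gemcitabine in the authors' deposited tables. ISCA1, another cluster assembly factor, rose by 0.54 (SE 0.15) and 0.80 (SE 0.11) there. GLRX5 was higher in shE4F1 than in shCTRL cells under gemcitabine (0.33, SE 0.12) and was at -0.14 untreated (adjusted p = 0.526) in the authors' deposited tables. The list median was -0.30 untreated and -0.28 with gemcitabine. The 5 genes lower without drug were lower with gemcitabine too.

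Related 2-oxoacid dehydrogenase and glycine cleavage genes, which share DLD or the lipoyl arm, were called lower in shE4F1 than in shCTRL cells in 4 of 11 and higher in 1 without drug, and lower in 6 and higher in 2 with gemcitabine. Over all genes the shares called were 36.7% and 41%, and 49.2% and 63.1% at a mean of at least 1000. GLDC, the glycine decarboxylase, was at -1.86 (SE 0.33) and -1.07 (SE 0.32), at a low mean of 47.7 normalized counts untreated, in the authors' deposited tables. BCKDK and BCKDHB, a kinase and an E1 subunit of branched-chain ketoacid breakdown, were at -0.61 (SE 0.14) and -0.63 (SE 0.16) untreated and at -0.48 (SE 0.12) and -0.29 (SE 0.11) with gemcitabine in the authors' deposited tables. PPM1K, the phosphatase that opposes BCKDK, was higher, at 0.51 (SE 0.16) and 0.39 (SE 0.11), and DHTKD1 was higher in shE4F1 cells under gemcitabine, at 0.40 (SE 0.12), in the authors' deposited tables. The medians were -0.10 untreated and -0.29 with gemcitabine.

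Genes for other fates of pyruvate held the largest changes among the pathway lists that deal with metabolism. Of 12, 6 were lower and 2 higher in shE4F1 than in shCTRL cells without drug, and 5 were lower and 4 higher with gemcitabine. Calls covered 36.7% and 41% of all genes, and 49.2% and 63.1% of those with a mean of at least 1000. SLC16A1, which carries lactate and pyruvate across the plasma membrane, fell by 1.99 (SE 0.14) untreated and 1.92 (SE 0.09) with gemcitabine in the authors' deposited tables. GPT2, the mitochondrial alanine aminotransferase, fell by 2.38 (SE 0.18) and 1.15 (SE 0.11), and PCK2, the mitochondrial phosphoenolpyruvate carboxykinase, fell by 2.00 (SE 0.22) untreated but was at -0.09 (SE 0.13, adjusted p = 0.666) with gemcitabine in the authors' deposited tables. Under gemcitabine the malic enzyme genes ME2 and ME1 were higher in shE4F1 than in shCTRL cells, by 0.62 (SE 0.11) and 0.45 (SE 0.10), as was ACLY, which makes acetyl-CoA from citrate, by 0.35 (SE 0.09), in the authors' deposited table. Gemcitabine itself lowered both malic enzyme genes in shCTRL cells, with log2 fold changes of -0.55 for ME2 (adjusted p = 0.000234) and -0.63 for ME1 (adjusted p = 0.000110) in the authors' deposited table. The list medians were -0.34 untreated and -0.17 with gemcitabine.

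PDK1 was also set beside 8 other targets of HIF-1, of which 2 were lower and 1 higher in shE4F1 than in shCTRL cells without drug and 3 lower and 3 higher with gemcitabine. The background was 36.7% and 41% of all genes called, and 49.2% and 63.1% at a mean of at least 1000. VEGFA, a vascular growth factor, fell by 1.10 (SE 0.24) and 0.42 (SE 0.12), and ANKRD37 fell by 1.07 (SE 0.30) and 0.66 (SE 0.28), untreated and with gemcitabine in the authors' deposited tables. ADM, the adrenomedullin gene, was called in opposite directions, at 1.38 (SE 0.26) untreated and -1.24 (SE 0.15) with gemcitabine in the authors' deposited tables. Under gemcitabine EGLN3, NDRG1 and BNIP3 were higher in shE4F1 than in shCTRL cells, by 1.33 (SE 0.12), 0.92 (SE 0.11) and 0.56 (SE 0.11) in the authors' deposited table. For gemcitabine in shCTRL cells BNIP3 was lower, at -0.55 (adjusted p = 0.00461), while EGLN3 at -0.69 (adjusted p = 0.208) and NDRG1 at -0.44 (adjusted p = 0.471) were not called in the authors' deposited table. The list was mixed in direction, and its medians were 0.08 untreated and -0.22 with gemcitabine.

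Of 10 measured partners and reported targets of E4F1 outside pyruvate metabolism, 4 were lower and 2 higher in shE4F1 than in shCTRL cells without drug, and 4 were lower and 4 higher with gemcitabine. HMGA2, an architectural chromatin protein, rose by 4.38 (SE 0.22) and 3.35 (SE 0.33), and FHL2, a LIM-domain partner of E4F1, fell by 1.71 (SE 0.18) and 3.10 (SE 0.14), untreated and with gemcitabine in the authors' deposited tables. RASSF1, another reported partner, fell by 0.65 (SE 0.20) and 1.03 (SE 0.13) there. CCNA2, the cyclin A2 gene, fell untreated (-0.71, SE 0.18) and was at -0.04 with gemcitabine (adjusted p = 0.889) in the authors' deposited tables. ELP3, the catalytic subunit gene of the Elongator complex, was higher in shE4F1 than in shCTRL cells under gemcitabine, by 0.38 (SE 0.10), and was at -0.35 untreated (adjusted p = 0.0541) in the authors' deposited tables. By the authors' deposited table, gemcitabine in shCTRL cells lowered ELP3, with a log2 fold change of -0.93 (adjusted p = 4.22e-08). The medians were -0.34 untreated and 0.05 with gemcitabine. Over the 59 measured genes of the 6 lists, 22 were lower and 9 higher in shE4F1 cells without drug, where 36.7% of all genes and 49.2% of those with a mean of at least 1000 were called. With gemcitabine 26 were lower and 16 higher, where 41% of all genes and 63.1% of those with a mean of at least 1000 were called. Reached through the other 2 tables, with an SE that is too large, 30 of the calls with gemcitabine were lost. In shCTRL cells gemcitabine lowered 14 of the 59 and raised 6 by the authors' deposited table, where 28% of all genes and 36.9% of those with a mean of at least 1000 were called.

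**Figure D5:**
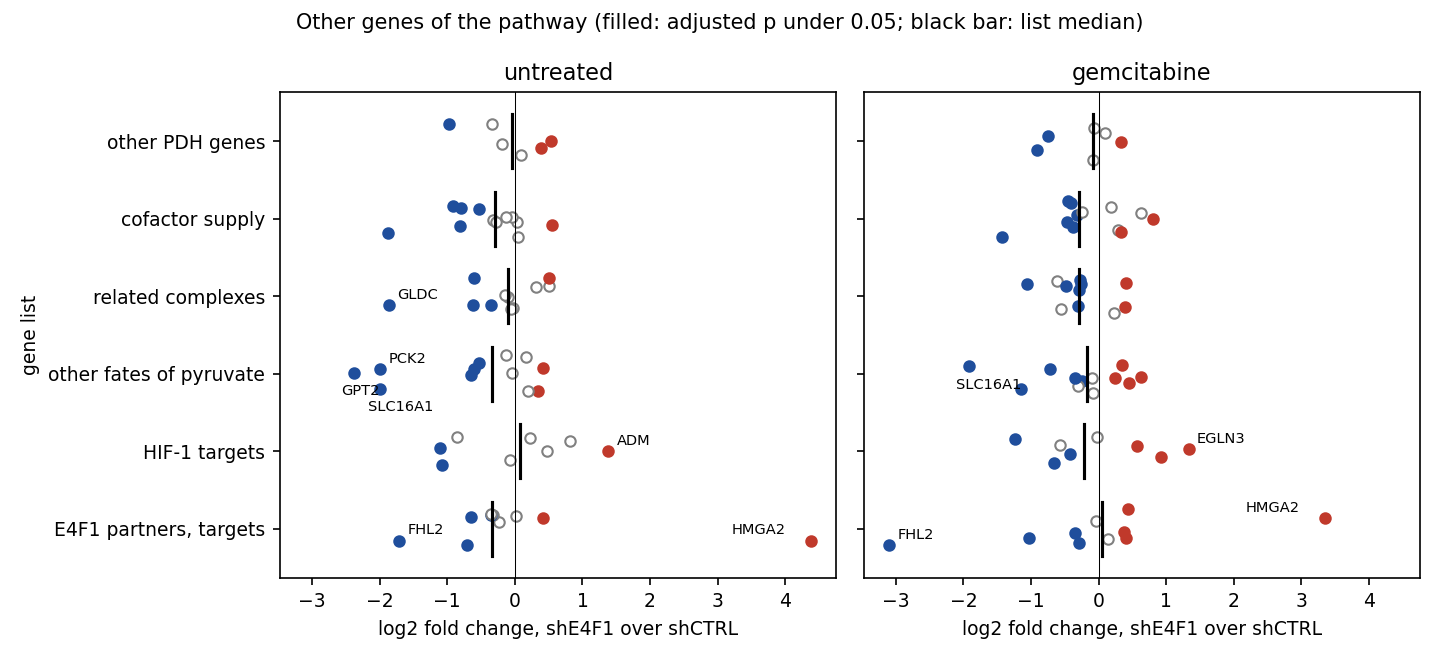
Log2 fold change of shE4F1 over shCTRL cells for the 59 measured genes of 6 lists (rows), without drug on the left and with gemcitabine on the right; each point is a gene, filled at an adjusted p under 0.05 (blue lower, red higher), black bars are list medians, and points are jittered vertically. SLC16A1 lies at -1.99 and -1.92 in the row of other fates of pyruvate and HMGA2 at 4.38 and 3.35 in the lowest row.

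The genes whose pattern lay nearest to that of E4F1 were sought among 12453 genes with a mean of at least 50 in 3 tables, by Euclidean distance over the log2 fold changes of the 2 knockdown comparisons and of gemcitabine in shCTRL cells. The 5 nearest were FRMD3 at a distance of 0.01, NADK, an NAD kinase, at 0.04, and TFDP1, CNOT1 and CCBE1 at 0.05 each. FRMD3 was at -0.98 and -0.92 in the knockdown comparisons and at -0.29 with gemcitabine in shCTRL cells in the authors' deposited tables. Among the pyruvate dehydrogenase genes PDHA1 was the nearest, 90th at a distance of 0.23. DLAT was 2543rd, PDK1 2550th, PDHB 5295th, MPC1 6254th, PDPR 7016th and DLD 8972nd. PDK3 was below the minimum mean of 50. The SEs of E4F1 itself in the 3 tables were 0.26, 0.16 and 0.25, above the distances of the 5 nearest genes. The order of genes this near, PDHA1 among them, is therefore not resolved.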

How the data were processed

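Polyadenylated RNA of 12 SUM159 libraries was turned into stranded libraries, per the labels, and read from one end over 50 bases. The submitters' processing notes name the build GRCh38.p7 and, with no role or order, HTSeq 0.9.0, DESeq2 1.14.1, R 3.4.0, Bowtie2 2.2.9, TopHat2 2.1.1, FastQC and bcl2fastq. The sources used here do not give the filters, the strand setting, the gene annotation or the model formula. Without a stated strand setting, reads of a gene and of an antisense partner may not be separable.

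Per the file headers, the authors' 4 deposited tables hold a mean of normalized counts (a signal per gene, with size factors applied), a log2 fold change, its SE and the Wald score, and a p-value with its adjusted value, all from DESeq2. The deposited fold changes of low genes may be moderated towards 0, which would understate them. The count table's 12 columns match no label, so the 12 were not used. No value per library, spread within a group or depth was computed, and the authors' DESeq2 test stands in place of a test on counts.

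Genes were called at an adjusted p under 0.05. Intervals are 95% normal intervals. The gemcitabine effect in shE4F1 cells and the change of the knockdown effect with drug are differences of 2 tables with summed variances. Each had a two-sided normal test and Benjamini-Hochberg adjustment, over 21080 and 20923 genes. The test of the change was tried on simulated data with independent errors and planted differences larger than those of the member genes. How it performs at the sizes reported for them was not tried. The test in shE4F1 cells, whose 2 tables share libraries, was not simulated. Python 3.11.15, numpy 2.4.6, pandas 2.3.3 and scipy 1.17.1 were used. Exon lengths came from GENCODE 29, as the union of all annotated exons of a gene.

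The 9 genes and 6 lists were chosen with earlier results of these data known. Named genes were the 9, every list gene called in a knockdown table where the list held at most 10, otherwise the 3 with the smallest adjusted p over the 2 knockdown tables in each direction, and the 5 nearest to E4F1. CDKN2A, of the list of E4F1 partners, was not analysed here, and some genes that this rule names are not reported here. Alternatives were other sets of genes for the p adjustment, centring on the median of genes with a mean of at least 50, and the same contrast through the other tables.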

Additional observations from a re-analysis of the deposited data

Results flagged for a closer look

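Among the 9 genes and the 59 measured list genes, the effect of the E4F1 hairpin differed between cells with and without gemcitabine in 6. Calls were made by a normal test of the difference at an adjusted p under 0.05. For PDK1 the effect was -0.17 with gemcitabine and -0.74 without, a difference of 0.58 (SE 0.18, adjusted p = 0.0327). That call was lost after centring (0.49, adjusted p = 0.0893) and through the other tables (0.55, adjusted p = 0.618). The other 5 were named from the pathway lists. For ADM the effect was -1.24 with gemcitabine and 1.38 without, a difference of -2.62 (adjusted p = 4.68e-15). For PCK2 it was -0.09 with gemcitabine and -2.00 without, a difference of 1.91 (adjusted p = 4.78e-11). FHL2 differed by -1.39 (adjusted p = 1.76e-07), with effects of -3.10 with gemcitabine and -1.71 without. GPT2 differed by 1.23 (adjusted p = 9.80e-07), with effects of -1.15 with gemcitabine and -2.38 without. ELP3 differed by 0.73 (adjusted p = 0.00263), with effects of 0.38 with gemcitabine and -0.35 without, and its call was lost through the other tables (0.70, adjusted p = 0.336). The share called in this comparison was 5.43% of all genes and 7.52% of those with a mean of at least 1000. Whether 6 calls exceed these shares was not tested. Outlying libraries could not be sought, since groups held 3 libraries and no value per library was used.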

How the results depend on the processing

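Of 201 results for the 9 genes under the alternatives, 197 kept their side of the threshold, and no called result changed direction. The exceptions were E4F1 (-0.89, adjusted p = 0.0772) and DLD (0.43, adjusted p = 0.306) with gemcitabine when reached through the other tables, and the change of the PDK1 knockdown effect after centring (0.49, adjusted p = 0.0893) and through the other tables (0.55, adjusted p = 0.618). Alternatives that changed only the p adjustment left the fold changes as they were, so no direction could change there. Some values near 0 that were not called did change sign. PDK3 with gemcitabine, at 0.01 in the deposited table, was at -0.12 through the other tables. Through the other tables SEs are too large by construction. There the knockdown with gemcitabine gave 1960 genes lower and 1682 higher, with 1 member lower and 0 higher, against 4656 and 4546 genes and 2 members and 1. Gemcitabine in shCTRL cells gave 1530 lower and 1498 higher, against 2691 and 2908. In shE4F1 cells it gave 7 lower, against 39. The change of the knockdown effect gave 82 lower and 48 higher with 0 members, against 550 and 587 with 1. Centring left 390 of its genes higher and 0 members. Among list genes named above, ME2 untreated was lost when adjusted over every gene (adjusted p = 0.0540), and the change of the ELP3 knockdown effect was lost through the other tables (0.70, adjusted p = 0.336), where 30 list calls of the knockdown with gemcitabine were lost too.

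No paired analysis was possible because the count columns carry no label that ties them to a replicate number. For the same reason the tests on counts with edgeR or DESeq2 and the runs leaving out each library were not run, so whether 1 library decides a value is unknown. Precision is limited by 3 libraries per group, and most of all for PDK3.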

Other observations

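Ratios of levels between genes of the complex were also taken per kilobase, with no error. Their size depends on the annotated exon lengths, so only the change of a ratio between groups can be read. DLD was at 3.71 times DLAT in untreated shE4F1 cells and at 2.12 times in untreated shCTRL cells. With gemcitabine this ratio was 3.63 in shE4F1 cells and 2.38 in shCTRL cells. PDHA1 was at 1.27 times DLAT in untreated shE4F1 cells and at 1.53 times in untreated shCTRL cells, and with gemcitabine at 1.17 times in shE4F1 cells and 1.97 times in shCTRL cells. AC135507.1, an antisense RNA that overlaps 7.63% of the PDHB exon bases, was at -1.19 untreated (SE 0.37, adjusted p = 0.00529) and 0.16 with gemcitabine (SE 0.37, adjusted p = 0.787) in the authors' deposited tables, at 1.15% of the PDHB mean untreated. Its part in the PDHB values was not tested.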
